A study of Mus musculus with 10 samples.

Results

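The genes described here build the basement membrane and anchor cells to it: the laminin chains, the integrin chains, both nidogens, perlecan (Hspg2), agrin (Agrn), fibronectin (Fn1) and dystroglycan (Dag1). They were chosen by gene symbol, as every laminin chain (Lama, Lamb, Lamc), every integrin alpha and beta chain and the 6 other named genes, whatever their values. The rule found 42 of the 29527 genes measured, made up of 11 laminin chains, 17 integrin alpha chains, 8 integrin beta chains and the 6 other genes. RNA of the dissected intermediate lobe (IL) of the mouse pituitary was sequenced in bulk, with 1 library per mouse, from mice aged 2 to 3 months, of which 4 were wild type (WT), 3 were p27-/- and 3 were p27-/-;Sox2+/-. p27-/- mice lack both copies of Cdkn1b, which encodes the cell cycle inhibitor P27, and p27-/-;Sox2+/- mice lack in addition 1 copy of Sox2. Sox2 encodes a transcription factor of pituitary stem cells that melanotrophs, the endocrine cells of the IL, also express at lower levels. The alleles are constitutive, so that every cell type of the dissected lobe carries them, and the mice were of mixed background and of both sexes. No group carried the Sox2+/- genotype alone, and the loss of a Sox2 copy was therefore measured only on a p27-/- background.

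A laminin is a cross-shaped trimer that joins an alpha, a beta and a gamma chain, and its alpha chain carries the main sites that cells bind. Laminins and type IV collagen form separate networks that nidogens and perlecan bridge, and the cells hold on to them through integrins, each a pair of an alpha and a beta chain, and through dystroglycan. In the pituitary, basement membranes surround the endocrine lobules and the capillaries, and the IL is a tissue of densely packed melanotrophs with few vessels, bordered by the stem cell layer of the cleft.

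The values are log2 normalised expression, and a difference of 1 is a factor of 2 on the linear scale. Among genes with low values the samples lie close together, so that their fold changes may be understated. The transformation behind the values is not named, and this was not tested. The table does not give the depth of each library, and precision is set by how many mice were used. limma tested the 17268 genes whose mean log2 value reached 3.32 (10 on the linear scale), and 39 of the 42 members were among them. A gene was called changed at an adjusted p under 0.05 over all tested genes.

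Among the laminin chains, the paralogs Lamb1 and Lamb2 had unlike values, with Lamb1 low in both mutants and Lamb2 overlapping with WT. Their promoters are shown for that reason, as the 300 bases around the RefSeq start, on build GRCm38.p6 and on the plus strand. The Lamb1 window is chr12:31265043-31265342 and the Lamb2 window is chr9:108479612-108479911, and capitals mark the GC box CCGCCC, the reverse complement of GGGCGG.
Lamb1: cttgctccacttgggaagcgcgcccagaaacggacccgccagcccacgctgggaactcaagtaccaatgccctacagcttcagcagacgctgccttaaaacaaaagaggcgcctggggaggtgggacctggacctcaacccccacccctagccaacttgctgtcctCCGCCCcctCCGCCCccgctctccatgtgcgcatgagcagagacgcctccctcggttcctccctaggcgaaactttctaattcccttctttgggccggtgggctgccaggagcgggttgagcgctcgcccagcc
Lamb2: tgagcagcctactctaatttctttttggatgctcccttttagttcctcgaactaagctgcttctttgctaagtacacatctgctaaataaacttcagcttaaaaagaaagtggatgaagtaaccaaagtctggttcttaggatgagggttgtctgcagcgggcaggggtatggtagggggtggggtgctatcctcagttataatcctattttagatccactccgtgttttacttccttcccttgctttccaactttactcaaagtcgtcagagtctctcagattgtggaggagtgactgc

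The Lamb1 window is 63.7% G and C and holds 2 GC boxes, whereas the Lamb2 window is 44% G and C and holds 0. RefSeq promoters were found for 27 of the 42 members, in 32 windows, and 18 of these windows held GGGCGG on either strand, against 35.7% of all 32851 promoter windows of the same length. The SOX core ACAATG was in 1 member window, of Itga8, against 12.6% of all windows, and ACAAAG was in 4, of Agrn, Itga3 and Itgb1, against 18.7%. The E2F core TTCCCGC was in 1 member window, of Lama5, against 4.6%, and the TATA box TATAAA was in 0, against 13.6%. These counts describe letters in the windows, and the Lamb1 and Lamb2 windows held none of the SOX, E2F and TATA letters.

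The libraries were those of IL tissue by their markers. Pomc, the melanotroph prohormone, had mean values of 18.46 in WT, 18.77 in p27-/- and 18.43 in p27-/-;Sox2+/- samples, and Pax7, the melanotroph lineage factor, lay between 11.60 and 11.83. Cdkn1b was below WT by -0.43 (adjusted p = 0.047) in the p27-/- and by -0.72 (adjusted p = 0.00854) in the p27-/-;Sox2+/- group on the log2 scale, and whether its remaining reads lie outside the deleted part cannot be seen from gene values. Sox2 had means of 7.46 in WT, 7.28 in p27-/- and 7.00 in p27-/-;Sox2+/- samples, with no call in any comparison. WT replicate 2 stood apart from the other WT libraries in neighbouring tissue: its summed log2 level of anterior lobe endocrine markers was 17.77, against 13.91 to 14.37 in the other WT libraries, and its mean difference over the posterior lobe markers was -0.88, against 0.15 to 0.41. In p27-/- replicate 1 the summed anterior lobe level was 16.56, against 12.82 and 14.86 in the other p27-/- libraries. WT replicate 2 also had the lowest value of the WT libraries for 19 of the 39 tested members, while WT replicate 1 had the highest for 15.

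Compared per kilobase of the longest coding transcript, the levels of the members spread widely in WT. Integrin beta 1 (Itgb1), the shared partner of most matrix-binding alpha chains, was the highest of all at a mean log2 level per kb of 9.17, followed by dystroglycan at 8.41. The laminin gamma chain Lamc1, which most laminins contain, stood at 7.18, above every other laminin chain. The main laminin-binding alpha chains Itga3 and Itga6 stood at 7.01 and 6.95, agrin at 6.70, Itgav at 6.42 and its partner Itgb8 at 6.07. Lama3 had the highest level of the alpha chains of laminin at 5.48, ahead of Lama2 at 4.93, Lama5 at 4.63, Lama4 at 4.62 and Lama1 at 2.91. Among the beta chains Lamb1 stood at 5.35 and Lamb2 at 5.13 in WT, but in p27-/- samples Lamb1 was at 4.39 and Lamb2 at 5.01. Lamb3, the usual beta chain partner of Lama3 in epithelia, was low at 3.18. The lowest levels were those of Lamc3 at -0.55 and Itga7, the laminin receptor of muscle, at -2.04.

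**Figure D1:**
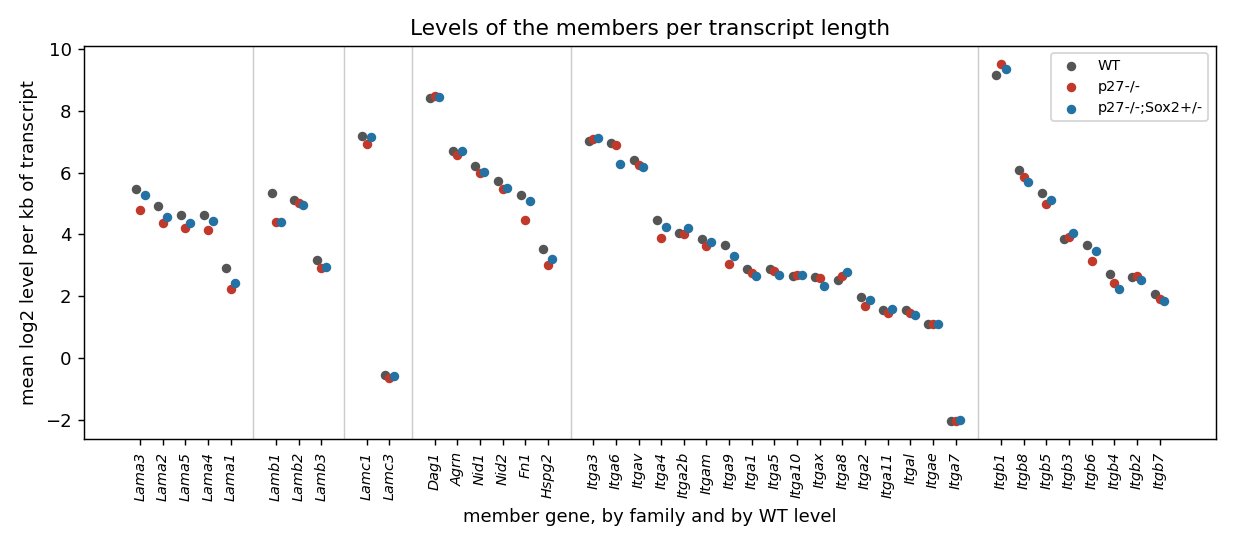
Mean log2 level per kb of transcript (y axis) of members (x axis, by family and by falling WT level), with 1 point per genotype. Itgb1 (9.17 in WT) and Dag1 (8.41) lie highest, Lamc3 and Itga7 lowest, and the Lamb1 points of both mutants lie below those of Lamb2.

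In p27-/- compared with WT samples, 4 members fell, among them the laminin chains Lamb1, Lama3 and Lama1, and no member rose. These 4 are 10.3% of the 39 tested members, against 7.78% of all tested genes called in either direction 4.62% called lower and 3.16% called higher. Most of the members lay below WT without passing the test: 32 of 39 had a negative log2 fold change, against 48.4% of all tested genes, and the median over the members was -0.21, against 0.01 over all tested genes. An unadjusted p under 0.05 was found for 16 members, 41%, against 24.1% of all genes. All p27-/- samples lay below all WT samples for 9 members, 23.1%, against 10.3% of all genes, and above them for 1, Itgb1, against 10.2%.

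In p27-/-;Sox2+/- compared with WT samples, Lamb1 and Itga6 fell and no member rose. These 2 are 5.13% of the tested members, against 2.71% of all genes called in either direction 1.88% called lower and 0.828% called higher. A negative log2 fold change was found for 31 of 39 members, against 47.9% of all genes, with a median of -0.20 against 0.01. The samples did not overlap, with the mutants lower, for 6 members, 15.4%, against 8.01% of all genes, and did so with the mutants higher for 0, against 7.02%. Both comparisons use the same WT samples, so that their values are given side by side and not as separate evidence.

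**Figure D2:**
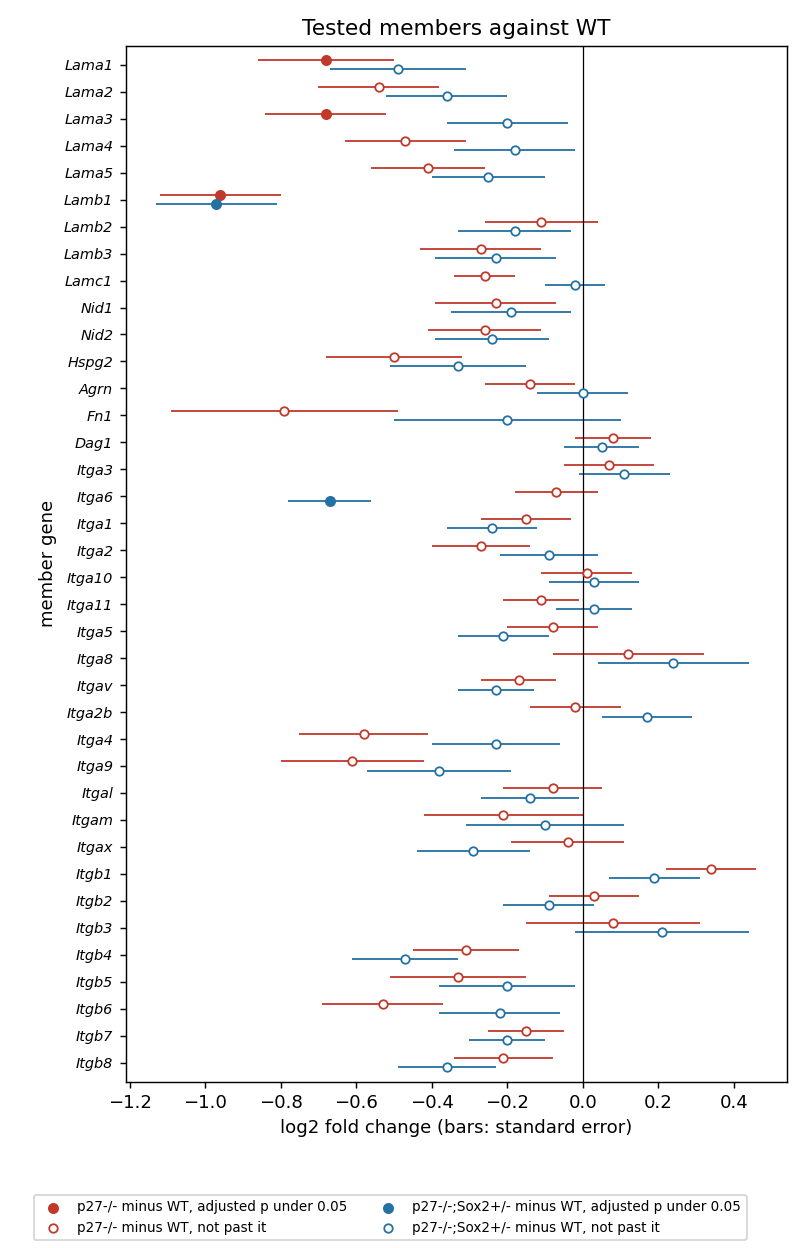
Log2 fold change against WT (x axis, bars: standard error) of tested members (y axis), in p27-/- (red) and p27-/-;Sox2+/- samples (blue), with filled points for an adjusted p under 0.05. Lamb1 is filled in both comparisons, Lama1 and Lama3 only for p27-/- and Itga6 only for p27-/-;Sox2+/-.

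Lamb1 (ENSMUSG00000002900, chromosome 12 from 31265146 to 31329644), a beta chain of the laminins of most basement membranes, had values of 8.20, 7.49, 8.01 and 7.83 in WT replicates 1 to 4. It had 6.92, 6.84 and 7.00 in the p27-/- samples and 6.92, 6.67 and 7.16 in the p27-/-;Sox2+/- samples. Every mutant sample lay below every WT sample, and the mutant groups overlapped. The log2 fold change was -0.96 (standard error, SE, 0.16, adjusted p = 0.00365) in the p27-/- and -0.97 (SE 0.16, adjusted p = 0.00729) in the p27-/-;Sox2+/- samples, a level of 0.51 of WT in each on the linear scale. Between the mutants the difference was -0.00, with a 95% confidence interval of -0.37 to 0.36. Lamb1 passed the test in p27-/- samples with any library left out, but in p27-/-;Sox2+/- samples it did not without replicate 2 of that genotype (adjusted p = 0.0544).

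Its paralog Lamb2, which replaces Lamb1 in the laminins of vessel walls and synapses, had means of 7.62 ± 0.26 (SD, n = 4) in the WT group, 7.51 ± 0.25 (SD, n = 3) in the p27-/- group and 7.44 ± 0.15 (SD, n = 3) in p27-/-;Sox2+/- samples. The samples overlapped in every comparison, and the 95% confidence interval of its difference from WT was -0.44 to 0.22 in p27-/- and -0.51 to 0.15 in p27-/-;Sox2+/- samples. The difference in fold change between Lamb1 and Lamb2 was not tested.

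Lama3 (ENSMUSG00000024421, on chromosome 18), the alpha chain of the laminin that anchors epithelia, had values of 8.57, 8.94, 9.02 and 8.86 in WT, 8.44, 8.26 and 7.80 in p27-/- and 8.89, 8.60 and 8.45 in p27-/-;Sox2+/- samples. The p27-/- samples lay below all others, and the p27-/-;Sox2+/- samples overlapped with WT. It fell in p27-/- samples by a log2 fold change of -0.68 (SE 0.16, adjusted p = 0.0201), while in p27-/-;Sox2+/- samples the fold change was -0.20 (adjusted p = 0.529). The direct comparison of the mutants gave 0.48 (95% confidence interval 0.12 to 0.83), which did not pass the test over all genes (adjusted p = 0.51). The call in p27-/- samples was lost without WT replicate 3 (adjusted p = 0.0518) and without p27-/- replicate 3 (adjusted p = 0.104).

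Lama1 (ENSMUSG00000032796, chromosome 17 from 67697127 to 67822645), the alpha chain of the early embryonic laminin, was the lowest of the tested alpha chains. Its values were 5.72, 6.41, 6.14 and 6.37 in WT, 5.52, 5.43 and 5.50 in p27-/- and 6.01, 5.38 and 5.62 in p27-/-;Sox2+/- samples. The p27-/- samples were close together and below WT, whereas the p27-/-;Sox2+/- samples overlapped with both other groups. The log2 fold change was -0.68 (SE 0.18, adjusted p = 0.0342) in the p27-/- and -0.49 (adjusted p = 0.155) in p27-/-;Sox2+/- samples. In p27-/- samples the call was lost, with an adjusted p between 0.0586 and 0.107, without WT replicate 2, 3 or 4 or any of the p27-/- samples.

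**Figure D3:**
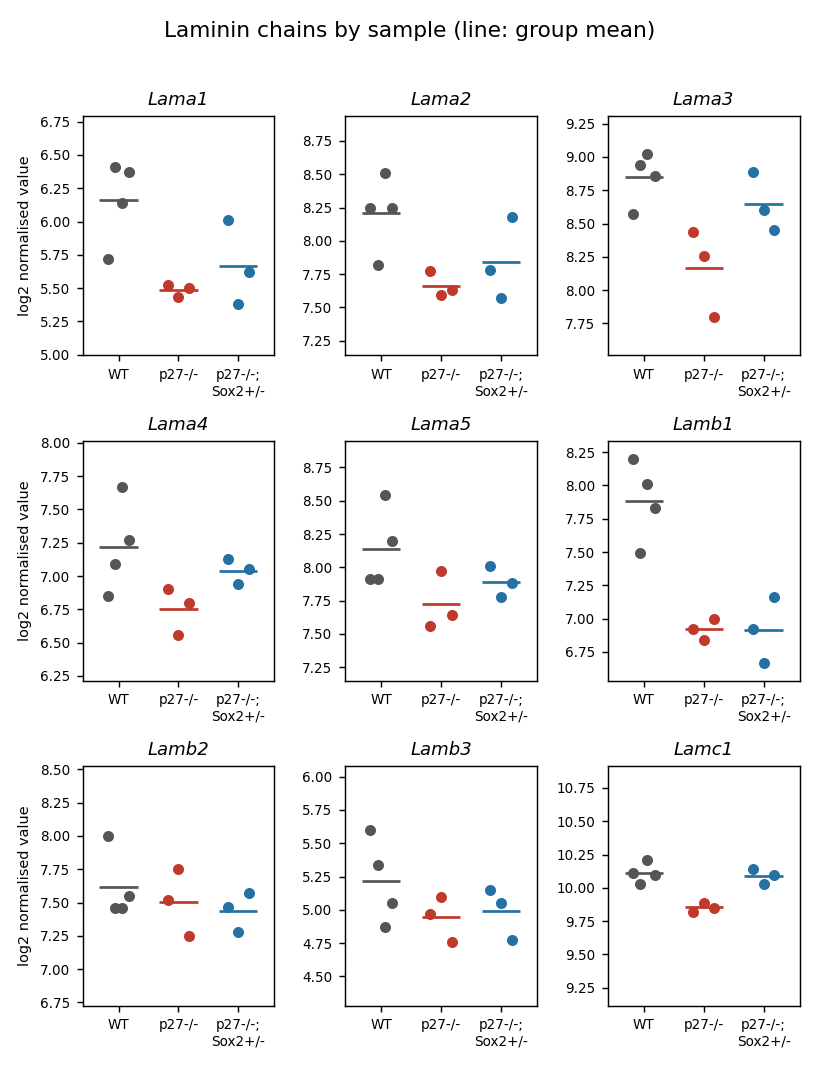
Log2 normalised values (y axis) of tested laminin chains by genotype (x axis), with 1 point per mouse and a line at the group mean. The mutant samples of Lamb1 lie below every WT sample, those of Lamb2 overlap with WT, and the p27-/- samples of Lama3 and Lamc1 lie below both other groups.

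The other laminin chains also lay below WT in both mutants, and none of them was called. All 10 tested laminin chains had a negative fold change in p27-/- samples, with a median of -0.49, and in p27-/-;Sox2+/- samples, with a median of -0.24. Lamc1, the most abundant chain, had values of 10.11, 10.03, 10.21 and 10.10 in WT, 9.82, 9.89 and 9.85 in p27-/- and 10.14, 10.03 and 10.10 in p27-/-;Sox2+/- samples. Its p27-/- samples lay below all others, but by a log2 fold change of only -0.26 against WT (adjusted p = 0.0583), and its p27-/-;Sox2+/- samples were at the WT level. Lama2, the alpha chain of muscle and nerve basement membranes, had 8.25, 7.82, 8.51 and 8.25 in WT, 7.77, 7.59 and 7.63 in p27-/- and 7.78, 7.57 and 8.18 in p27-/-;Sox2+/- samples. All p27-/- values of Lama2 lay below WT, with a fold change of -0.54 (adjusted p = 0.0545). Lama4, an alpha chain of vessel basement membranes, had 6.85, 7.09, 7.67 and 7.27 in WT, 6.90, 6.56 and 6.80 in p27-/- and 7.13, 6.94 and 7.05 in p27-/-;Sox2+/- samples. It overlapped with WT in both mutants, while all p27-/-;Sox2+/- values of Lama4 lay above the p27-/- values (fold change 0.29, adjusted p = 0.893). Lama5, the broadly used epithelial and vessel alpha chain, and Lamb3 had fold changes of -0.41 and -0.27 in p27-/- samples, with adjusted p of 0.113 and 0.339.

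Itga6 (ENSMUSG00000027111, chromosome 2 from 71786886 to 71858427), the alpha chain of the main laminin-binding integrins, fell in the p27-/-;Sox2+/- samples. Its values were 8.92, 9.09, 8.99 and 9.25 in WT, 9.11, 8.82 and 9.04 in p27-/- and 8.56, 8.38 and 8.26 in p27-/-;Sox2+/- samples. The latter all lay below every sample of both other genotypes, and the p27-/- samples overlapped with WT. Against WT the change was a log2 fold change of -0.67 (SE 0.11, adjusted p = 0.00729), a level of 0.63 of WT. In p27-/- samples the fold change was -0.07 (95% confidence interval -0.31 to 0.17). Against p27-/- it was -0.59 (95% confidence interval -0.85 to -0.34), which did not pass the test over all genes (adjusted p = 0.0967). Of 9 other settings it passed in 1, with weights for the samples (adjusted p = 0.0064), where 1.64% of all genes were called. With a library left out it passed in 0 of 10 fits (adjusted p from 0.0548 to 0.559). Without p27-/-;Sox2+/- replicate 2 the call against WT was just lost (adjusted p = 0.0509). Of the 10 tested pituitary stem cell markers, 9 had a negative fold change against WT in that genotype, against 47.9% of all tested genes. Sox2, of which that genotype lacks 1 copy by design, is among the 9 (-0.46, adjusted p = 0.0811). It also enters the mean difference and the summed level of the list. The carboxypeptidase-like gene Cpxm2 was the 1 marker called, and it was lower, against 1.88% of all genes called lower. In p27-/- samples 9 of the 10 were also negative, against 48.4% of all genes, and 0 were called. The mean difference of these markers from the WT mean ran from -0.03 to 0.02 in WT samples. It ran from -0.22 to -0.06 in p27-/- and from -0.25 to -0.13 in p27-/-;Sox2+/- samples. Every sample of both mutants lay below every WT sample. The mutants overlapped with each other, and between them 5 markers were lower and 5 higher. The summed log2 level, to which the most abundant markers contribute most, was 12.02 to 12.13 in p27-/-;Sox2+/-, 12.15 to 12.29 in p27-/- and 12.18 to 12.42 in WT samples. The part of these markers in the Itga6 result was not tested. In bulk tissue, fewer cells of a type and less RNA per cell cannot be told apart, here and for the other genes.

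The partners of Itga6 were measured beside it. Itgb4, which joins Itga6 in the hemidesmosome, had values of 5.36, 5.21, 5.39 and 5.47 in WT, 4.95, 5.34 and 4.86 in p27-/- and 5.06, 4.93 and 4.67 in p27-/-;Sox2+/- samples. All p27-/-;Sox2+/- samples lay below WT, with a log2 fold change of -0.47 that was not called (adjusted p = 0.0866). Itgb1, the other partner, had 11.17, 11.24, 11.01 and 10.99 in WT, 11.70, 11.32 and 11.33 in p27-/- and 11.10, 11.31 and 11.46 in p27-/-;Sox2+/- samples. All p27-/- samples of Itgb1 lay above all WT samples, with a fold change of 0.34 (adjusted p = 0.0838), in the direction opposite to the laminins. Itga3, the other abundant laminin-binding alpha chain, had a mean of 9.29 ± 0.24 (SD, n = 4) in WT samples. Its mean was 9.36 ± 0.09 (SD, n = 3) for p27-/- and 9.40 ± 0.07 (SD, n = 3) for p27-/-;Sox2+/-, and the 95% confidence interval of its difference from WT in p27-/-;Sox2+/- samples was -0.14 to 0.36.

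**Figure D4:**
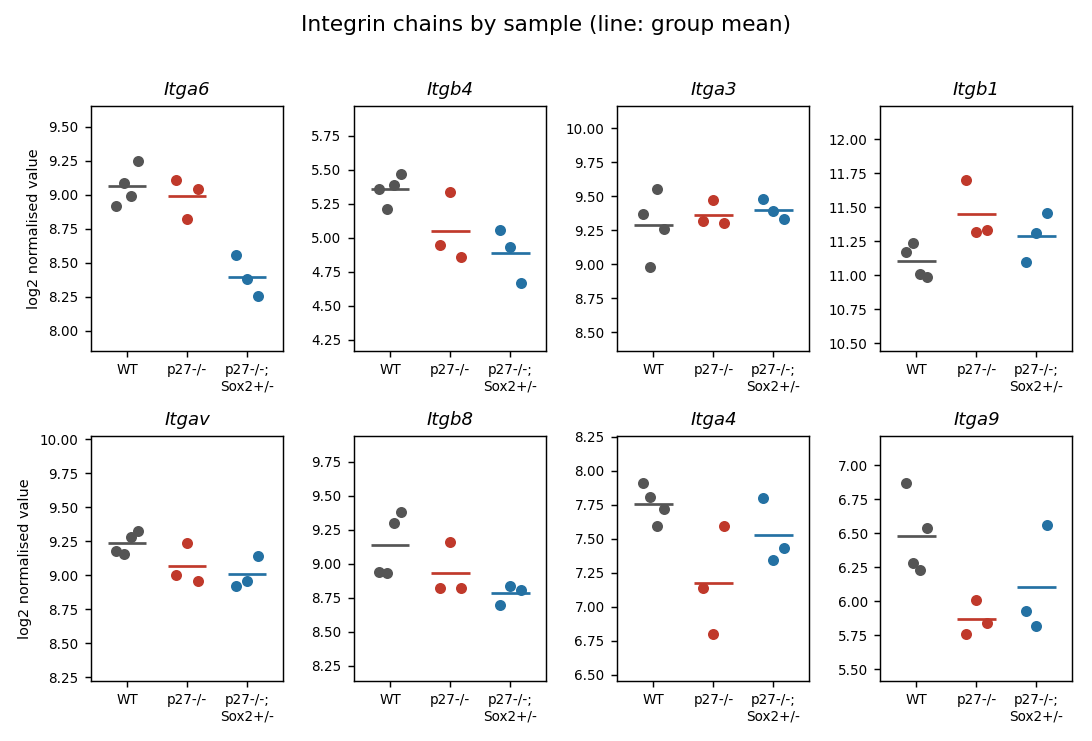
Log2 normalised values (y axis) of 8 integrin chains by genotype (x axis), with 1 point per mouse and a line at the group mean. The p27-/-;Sox2+/- samples of Itga6 (8.26 to 8.56) lie below all samples of the other genotypes, while those of Itga3 overlap with WT.

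The integrins that bind fibronectin, vitronectin and latent TGF-beta through the RGD motif were not called. Itgav had values of 9.18, 9.16, 9.28 and 9.33 in WT, 9.00, 9.24 and 8.96 in p27-/- and 8.92, 8.96 and 9.14 in p27-/-;Sox2+/- samples. Its partner Itgb8 had 8.94, 8.93, 9.30 and 9.38 in WT, 8.82, 9.16 and 8.82 in p27-/- and 8.70, 8.84 and 8.81 in p27-/-;Sox2+/- samples. For both genes every p27-/-;Sox2+/- sample lay below every WT sample, with log2 fold changes of -0.23 (adjusted p = 0.225) and -0.36 (adjusted p = 0.153). Itgb6, an epithelial partner of Itgav, had 6.06, 6.19, 5.51 and 5.98 in WT, 5.56, 5.38 and 5.27 in p27-/- and 5.65, 5.63 and 5.87 in p27-/-;Sox2+/- samples. Its p27-/- samples lay below those of p27-/-;Sox2+/- and overlapped with WT, and its fold change of -0.53 against WT just missed the threshold (adjusted p = 0.0527). Itgb5, Itgb3, Itga5 and Itga8 had WT means of 6.96, 6.37, 5.02 and 5.08, and their samples overlapped between the genotypes.

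Itga4 and Itga9, alpha chains that bind fibronectin, tenascin and the endothelial receptor VCAM1, were lower in p27-/- samples without being called. Itga4 had 7.91, 7.81, 7.59 and 7.72 in WT, 7.14, 6.80 and 7.59 in p27-/- and 7.80, 7.34 and 7.43 in p27-/-;Sox2+/- samples. The highest p27-/- value and the lowest WT value of Itga4 were equal to 2 decimals, and the fold change of -0.58 lay just outside the threshold (adjusted p = 0.0508). Itga9 had 6.87, 6.28, 6.23 and 6.54 in WT, 5.76, 6.01 and 5.84 in p27-/- and 5.93, 5.82 and 6.56 in p27-/-;Sox2+/- samples, with a fold change of -0.61 in p27-/- samples (adjusted p = 0.0638). All p27-/- samples of Itga9 lay below WT, and 1 of the p27-/-;Sox2+/- samples was at the WT level.

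Among the collagen-binding alpha chains, Itga1 had values of 5.39, 5.42, 5.64 and 5.44 in WT, 5.24, 5.35 and 5.37 in p27-/- and 5.14, 5.13 and 5.43 in p27-/-;Sox2+/- samples. Its p27-/- samples lay just below WT, with a fold change of -0.15 (adjusted p = 0.467). Itga2, which lies close to the lower limit for testing, had 3.77, 4.07, 3.97 and 4.40 in WT, 3.77, 3.76 and 3.80 in p27-/- and 4.01, 3.82 and 4.07 in p27-/-;Sox2+/- samples, so that the mutant groups did not overlap with each other. Itga10 and Itga11 had WT means of 5.00 and 3.88 and overlapped in every comparison. Itga2b, the platelet alpha chain, had 5.90, 5.56, 5.87 and 5.99 in WT, 5.69, 5.89 and 5.83 in p27-/- and 6.02, 6.04 and 5.95 in p27-/-;Sox2+/- samples, and the latter lay above the p27-/- samples by 0.20 (adjusted p = 0.927).

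The leukocyte integrin chains other than Itgam were low in the dissected lobe. Itgam, of macrophages and microglia, had a WT mean of 6.11 with a range from 5.61 to 6.72, and Itgal, Itgax, Itgb2 and Itgb7 had WT means from 3.48 to 4.65. None of the 5 tested was called in any comparison by limma, and 0 had an unadjusted p under 0.05. Itgae, at a WT mean of 3.04, Lamc3, at 2.00, and Itga7, at 0.05, were below the limit for testing.

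The remaining matrix members were not called. Nid1 and Nid2, which link laminin to type IV collagen, had means of 8.82 ± 0.21 and 8.03 ± 0.19 (SD, n = 4) in the WT group, 8.59 ± 0.31 and 7.76 ± 0.30 (SD, n = 3) in the p27-/- group and 8.62 ± 0.27 and 7.78 ± 0.22 (SD, n = 3) in p27-/-;Sox2+/- samples. Perlecan (Hspg2), a heparan sulfate proteoglycan, had 7.35 ± 0.32 (SD, n = 4) in the WT group, 6.85 ± 0.22 (SD, n = 3) in the p27-/- group and 7.02 ± 0.28 (SD, n = 3) in p27-/-;Sox2+/- samples, and its fold change in p27-/- samples was called only without WT replicate 2 among the leave-outs (adjusted p = 0.031). Fn1 varied most within WT, from 7.69 to 9.30, and its fold change in p27-/- samples of -0.79 (SE 0.30, adjusted p = 0.127) was likewise called only without WT replicate 2 (adjusted p = 0.048), while without WT replicate 3, the sample at 9.30, it was -0.465 (adjusted p = 0.239). Agrin, which binds laminin and dystroglycan, differed from WT by -0.14 in p27-/- and by -0.00 in p27-/-;Sox2+/- samples. Dystroglycan (Dag1) had means of 10.55 ± 0.17 (SD, n = 4) in the WT group, 10.63 ± 0.06 (SD, n = 3) in the p27-/- group and 10.60 ± 0.09 (SD, n = 3) in p27-/-;Sox2+/- samples, with a 95% confidence interval of the difference from WT of -0.12 to 0.29 in p27-/- samples.

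Between the mutants no member was called by limma, against 0.145% of all tested genes (0.0811% higher and 0.0637% lower in p27-/-;Sox2+/- samples), and 3 of 39 had an unadjusted p under 0.05 (Itga6, Lama3 and Lamc1), against 6.65% of all genes. The p27-/-;Sox2+/- samples did not overlap with p27-/- and lay above them for 6 members (Itga2, Itga2b, Itgb6, Lama3, Lama4 and Lamc1), 15.4%, against 7.51% of all genes, and below them for 1, Itga6, against 7.75%. A negative fold change between the mutants was found for 14 of 39 members, against 51.4% of all genes, and the median was 0.11, against -0.00. Of the laminins, 8 of 10 had a higher mean in p27-/-;Sox2+/- than in p27-/- samples, the exceptions being Lamb1 and Lamb2.

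Genes that work with the members were read from 3 lists. Of 26 tested basement membrane partners, 2 fell and 1 rose in p27-/- samples, against 4.62% of all tested genes called lower and 3.16% called higher. Of the 26 fold changes 22 were negative, against 48.4% of all genes, with a median of -0.24 against 0.01. Col4a6, a type IV collagen chain, fell in the p27-/- (-0.44, adjusted p = 0.0239) and the p27-/-;Sox2+/- samples (-0.45, adjusted p = 0.0356), and Fbln5, an elastic fibre protein, fell in p27-/- samples (-0.63, adjusted p = 0.0438). Smoc1, a secreted calcium-binding protein of basement membranes, rose in p27-/- samples (0.46, adjusted p = 0.0271). In p27-/-;Sox2+/- samples Col4a6 was the only one of the 26 called, against 1.88% of all tested genes called lower and 0.828% called higher.

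Of 32 tested genes of the integrin adhesion complex, the proteins that tie integrins to actin, 7 fell and 0 rose in p27-/- samples, where 4.62% of all tested genes were called lower and 3.16% higher, and 19 of 32 fold changes were negative, with a median of -0.10 against 0.01 over all genes. The tensins, which bind integrin tails and actin, made up 3 of the 7: Tns1 fell by 0.73, Tns2 fell by 0.61 and Tns3 fell by 0.57 on the log2 scale, with adjusted p of 0.00354, 0.0101 and 0.0149. Apbb1ip, the RIAM adaptor that recruits talin, fell by 0.71 (adjusted p = 0.00562), Parva, a parvin of the ILK complex, fell by 0.35 (adjusted p = 0.0275) and Vcl, vinculin, fell by 0.43 (adjusted p = 0.0333). In p27-/-;Sox2+/- samples Apbb1ip (-0.71, adjusted p = 0.0115) and Tns1 (-0.60, adjusted p = 0.0186) were called, again lower. These are 2 of 32, where 1.88% of all tested genes were called lower and 0.828% higher.

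Of 27 tested genes of the dystroglycan complex and its glycosylation, 5 fell and 0 rose in p27-/- samples, against the same 4.62% and 3.16% of all tested genes, and 18 of 27 fold changes were negative, with a median of -0.08. Dmd, dystrophin, fell by 0.53 on the log2 scale (adjusted p = 0.0095), its homolog Utrn fell by 0.53 (adjusted p = 0.0173), the dystrobrevin Dtna fell by 0.83 (adjusted p = 0.0229) and the syntrophin Sntb2 fell by 0.58 (adjusted p = 0.0435). In p27-/-;Sox2+/- samples Dtna was the only one of the 27 called (-0.83, adjusted p = 0.0402), against 1.88% of all tested genes called lower and 0.828% called higher. Between the mutants, 0 genes of the 3 lists were called by limma, against 0.145% of all tested genes. An unadjusted p under 0.05 was found for 2 of 26, 4 of 32 and 2 of 27 genes in the order given here. The share over all tested genes was 6.65%.

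Markers of the cell types in the dissected tissue were read beside these results. Of all tested genes, 4.62% were called lower, 3.16% were called higher and 48.4% had a negative fold change in p27-/- samples. In p27-/-;Sox2+/- samples these shares were 1.88%, 0.828% and 47.9%. An unadjusted p under 0.05 was found for 24.1% of all genes in p27-/- and for 17.8% in p27-/-;Sox2+/- samples. Of 8 melanotroph markers, Oacyl (0.77, adjusted p = 0.00161) and Pcsk2, a prohormone convertase (0.53, adjusted p = 0.0352), were called higher in p27-/- samples and Pcsk1, another convertase (-0.45, adjusted p = 0.0206), was called lower, with 6 of 8 fold changes positive. Pcsk1 was the 1 melanotroph marker called in p27-/-;Sox2+/- samples (-0.42, adjusted p = 0.0498). Of 8 anterior lobe markers, Fshb, a gonadotropin chain, was called lower in p27-/- (-2.04, adjusted p = 0.028) and also in p27-/-;Sox2+/- samples (-2.27, adjusted p = 0.0294). Of 13 tested endothelial markers, the VEGF receptors Kdr (-0.83, adjusted p = 0.00966) and Flt1 (-0.75, adjusted p = 0.029) and Robo4 (-0.37, adjusted p = 0.0362) were called lower in p27-/- samples, and the same 3 in p27-/-;Sox2+/- samples, while 13 and 12 of the 13 fold changes were negative. Their summed log2 level was 9.27 to 9.63 in WT, 8.87 to 9.20 in p27-/- and 8.97 to 9.35 in p27-/-;Sox2+/- samples. By this measure every p27-/- sample lay below every WT sample, and the p27-/-;Sox2+/- samples overlapped with WT. The mean difference over the list overlapped between WT (-0.19 to 0.14) and both p27-/- (-0.41 to -0.16) and p27-/-;Sox2+/- samples (-0.37 to -0.06). Of 9 tested fibroblast markers, 6 had a negative and 3 a positive fold change in p27-/- samples, where Pdgfra and Lum were called lower, and 3 of 9 had an unadjusted p under 0.05 in p27-/-;Sox2+/- samples, where limma called 0. The mean difference over the fibroblast list overlapped between WT (-0.20 to 0.12), p27-/- (-0.49 to 0.03) and p27-/-;Sox2+/- samples (-0.49 to -0.04). All 8 posterior lobe markers had negative fold changes in both mutants, with 1 called in p27-/- samples, and their summed log2 levels ran from 9.62 to 11.00 in WT, 9.75 to 9.93 in p27-/- and 9.26 to 10.56 in p27-/-;Sox2+/- samples. Of 8 mural and 13 macrophage and microglia markers, 0 were called in either mutant, with 1 and 0 at an unadjusted p under 0.05 in p27-/- and 2 and 3 in p27-/-;Sox2+/- samples. Negative fold changes were found for 6 of the 8 mural markers in p27-/- and 7 in p27-/-;Sox2+/- samples. For the 13 macrophage and microglia markers these counts were 11 and 13. Endothelium and fibroblasts are known sources of laminins, nidogens and perlecan, and the part of these marker lists in the laminin results was not tested. Without WT replicate 2, the library with the high anterior and low posterior lobe markers, 7 of 39 tested members were called lower in p27-/- samples. Fn1, Hspg2, Lama2, Lama3, Lamb1 and Lamc1 were among them. In that fit 8.94% of all 17268 tested genes were called in either direction, 889 genes lower and 654 higher.

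**Figure D5:**
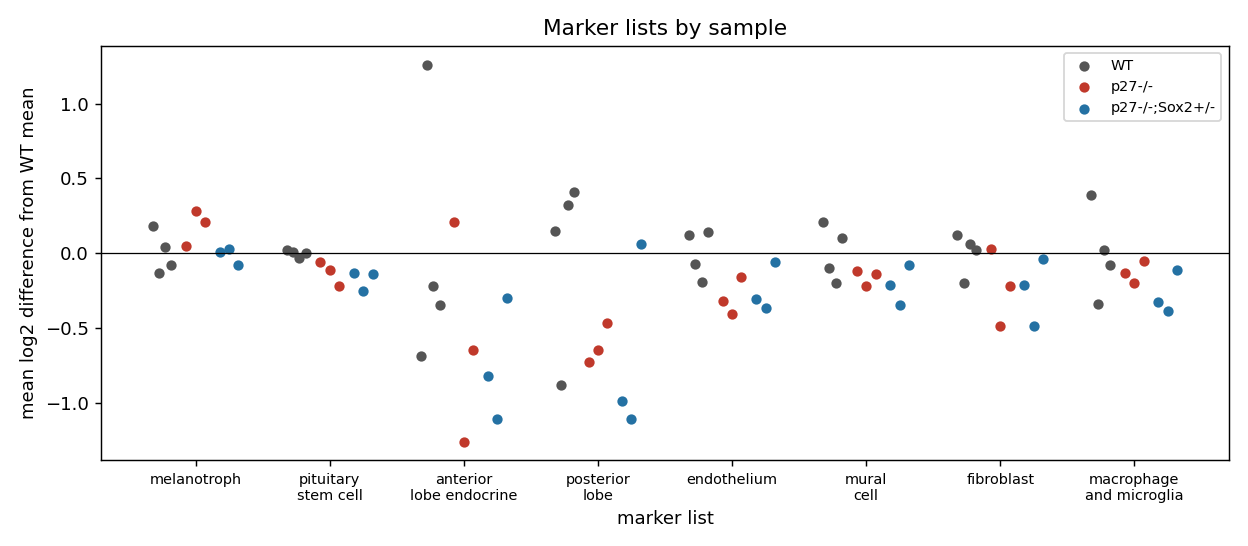
Mean log2 difference from the WT mean (y axis) of 8 marker lists (x axis), with 1 point per mouse. The p27-/- samples lie below the WT mean in the stem cell, endothelial, posterior lobe, mural cell and macrophage lists. Their range overlaps with WT in each of these except the stem cell list. The 4 WT libraries spread most in the anterior and posterior lobe lists.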

How the data were processed

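RNA of dissected IL from 10 mice was measured, with 1 library per mouse. Per the labels and the study's methods, the authors aligned the reads with STAR 2.5.2a, counted them per gene with RSEM 1.3.30 without strand information on the Ensembl transcriptome of mouse GRCm38, normalised them with DESeq2 1.18.1 and deposited log2 values, whose transformation is not named. Reads of overlapping genes on opposite strands can therefore not be told apart. The table holds no counts, so library depth is unknown and no count model was fitted.

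Samples were grouped by the genotype label. The 3 genotypes were compared in 1 limma 3.58.1 fit (R 4.3.3, eBayes with trend), adjusting p by Benjamini-Hochberg over 17268 genes whose mean reached 10 on the linear scale. The fit was tested on simulated data. Levels per kb used transcript lengths of GENCODE on NCBIM37, and gene positions and promoters came from RefSeq on GRCm38.p6. Tables and figures were made with Python 3.11.15, pandas 2.3.3, numpy 2.4.6 and matplotlib 3.10.9. Members called, or with samples of a pair of genotypes that did not overlap, were described by sample, the others by mean, range or count, and of each pathway list at most the 6 genes with the smallest p were named per comparison. Members and lists were chosen with earlier results of these data known. Alternatives were quantile normalization or median centring of the samples, array weights, a fit without the trend, a fit of the 2 groups alone, a minimum mean of 50 or none, the replicate block, Xist as a covariate and leaving out each sample. A member and a gene of the dystroglycan list enter the counts but are not reported here by name or value.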

Additional observations from a re-analysis of the deposited data

How the results depend on the processing

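For p27-/- against WT, 4 of 39 tested members were called, against 7.78% of all tested genes. Without a filter on low values 2 of 42 were called, against 2.81% of all genes. With a mean of at least 50 the count was 7 of 27, against 9.46%, and with array weights 7 of 39, against 10.2%. With the replicate number as a block it was 1 (Lamb1), against 3.45%. With a library left out it lay between 2 and 7, and the share of all genes between 2.33% and 9.9%. For p27-/-;Sox2+/- against WT the 2 called became 0 to 3 with a library left out, 0 without p27-/-;Sox2+/- replicate 2. Between the mutants, array weights called 1 (Itga6), and the left-out fits called 0. The log2 fold change of Itga6 in p27-/- lay between -0.129 and 0.014 with a library left out, above 0 only without p27-/- replicate 2, and that of Lamb1 between the mutants lay between -0.122 and 0.119, above 0 without p27-/- replicate 3 (0.039) and without p27-/-;Sox2+/- replicate 2. Neither had been called, and the cause of these changes was not tested. Over all genes, the 1343 called in p27-/- became 831 with no filter, 807 with only the 2 groups, 595 with the block and 403 to 1709 with a library left out. The 468 in p27-/-;Sox2+/- became 312 with no filter, 260 with 2 groups, 1240 with array weights, 209 with the block and 80 to 658 with a library left out. The 25 between the mutants became 6 with no filter, 45 with 2 groups, 8 without the trend, 283 with array weights, 15 with quantile normalization, 2 with the block and 0 to 41 with a library left out. Lamb1 in p27-/- was called under every alternative run. The replicate numbers were not taken to pair the samples, since the deviations of same-numbered samples correlated by between -0.238 and 0.182. Tests on counts were not run on log2 values. Depth is unknown, so low members such as Itga2 and Lamc3 limit what these data can show.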
